A study of Rattus norvegicus with 12 samples.

Results

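The effect of glutamate receptor blockade, averaged over both treatment times, was measured on the 6 arrays of blocked rat hippocampal cultures against the 6 arrays of untreated ones, which are all 12 arrays of the series. The neurons came from Wistar rat embryos of day 18 and had been in culture for 14 to 15 days. Blocked cultures received 50 µM GYKI-52466 together with 10 µM MK-801 for 9 h (3 arrays) or 26 h (3 arrays), and untreated cultures were kept for the same 9 h (3 arrays) or 26 h (3 arrays). The labels describe the replicates of a group as independent cultures. The labels give no purification of neurons, and fewer cells of a type and less RNA per cell cannot be told apart in such bulk RNA.

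GYKI-52466 is an antagonist of AMPA receptors, which carry fast excitatory transmission, and MK-801 blocks the open channel of NMDA receptors, the main route of synaptic calcium entry. Firing and calcium entry normally drive kinases such as CaMKs and ERK and the transcription factors CREB, SRF and MEF2. These factors switch on immediate early genes, such as Fos and Npas4, and then a later wave of secreted factors, signalling feedback proteins and synaptic proteins. Long silencing is also a standard means of inducing homeostatic strengthening of synapses in culture. The genes described here lie outside the classic immediate early set.

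Every slide held 1 blocked array of one time and 1 untreated array of the other time with the same replicate number. On 3 slides, scanned on day 1, the blocked 26 h array lay beside the untreated 9 h array, and on 3 slides, scanned on day 2, the blocked 9 h array lay beside the untreated 26 h array. The averaged effect is therefore balanced over slides and scan days, whereas the effect at 1 time and the scan day cannot be told apart, so the effects at 9 h and at 26 h are given as values without a test. Levels are log2 processed signals relative to the 75th percentile of the array, so a negative level is a signal below that percentile, and levels of different probes cannot be set against each other. The scanner software marked 77.6% to 86.8% of each array's spots as well above background. The arrays labelled replicate 3 stood apart in every group by markers of meningeal, fibroblast, vascular and choroid plexus cells: their summed linear level was 33.8 and 34.2 on blocked arrays and 28.7 and 34.7 on untreated arrays, against 2.01 to 9.68 on the other blocked and 3.34 to 8.03 on the other untreated arrays. Blocked and untreated arrays shared this difference, and the part of cell makeup in the results below was not tested.

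Of 21244 genes or unnamed targets tested, 2275 passed an adjusted p of 0.05 (10.7% of those tested), 1142 higher and 1133 lower with blockade. Changes were mostly small: the median change was 0.42 log2 among the higher and -0.46 log2 among the lower genes, against -0.02 over all genes tested. Falls were the larger ones at the extreme, with 139 genes at least 2-fold lower (0.654%) and 81 at least 2-fold higher (0.381%), and 24 at least 4-fold lower and 1 at least 4-fold higher. Blocked and untreated arrays separated without overlap for 155 higher genes (0.73%) and 148 lower genes (0.697%), together 1.43% of those tested. The blocked array was the higher one on all 6 slides for 5.7% of the genes tested and the lower one for 5.02%. Of the classic immediate early genes, 25 of 39 tested were lower and 0 higher, and they are not described further. Of 12345 named genes tested, 1524 passed, a larger share than over all genes and unnamed targets tested, and 1499 of them lie outside this set. The gene lists below hold named genes only. The shares over all genes tested, 5.38% higher and 5.33% lower, are therefore a low baseline for each list. In the matrix the authors deposited, which has another constant per array, 60.9% of the genes past the threshold were higher, against 50.2% here, so the balance of rises and falls depends on the scaling. The count of genes past the threshold also depends on each slide: it lay between 874 and 1733 with 1 slide left out, and was 899, 200 and 330 without the arrays of replicate 1, 2 and 3, which leave few degrees of freedom. Without the replicate 3 arrays, none of the 153 genes named by rule changed sign, none of their effects shrank by over 1.5 times, and 60 stayed past the threshold.

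The largest falls included genes for secreted proteins, their receptors and signalling regulators. Bdnf, the neurotrophin whose transcription follows neuronal activity, lay between -3.02 and -2.16 (median -2.59) in blocked cultures and between -0.64 and 0.78 (median -0.08) in untreated cultures. No blocked array reached the lowest untreated one, and the effect was -2.59 ± 0.09 log2 (SE), a 6.01-fold fall (adjusted p = 0.000260). Inhba, which encodes the subunit of activin A, lay between -3.97 and -2.54 (median -3.34) in blocked cultures and between -1.56 and -0.31 (median -0.77) in untreated cultures. The groups again did not overlap, and the effect was -2.44 ± 0.20 (adjusted p = 0.00199). Cyp26b1, an enzyme that degrades retinoic acid, lay between -4.92 and -2.46 (median -3.32) in blocked cultures and between -1.94 and -0.88 (median -1.41) in untreated cultures. Its effect was -2.18 ± 0.16 (adjusted p = 0.00168), with -1.03 at 9 h and -3.33 at 26 h, so the blocked 26 h arrays were the lowest of all. Nfil3, a basic leucine zipper repressor linked to circadian output, lay between -2.98 and -1.30 (median -1.76) in blocked cultures and between -0.56 and 0.88 (median 0.12) in untreated cultures. It fell by 2.10 on the log2 scale (adjusted p = 0.000951), with the blocked 26 h arrays again lowest (-0.96 at 9 h and -3.23 at 26 h).

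Other large falls were in genes better known from other tissues. Perm1, a regulator of oxidative metabolism in muscle, lay between -6.70 and -5.2 (median -5.91) in blocked cultures and between -4.22 and -2.72 (median -3.33) in untreated cultures, an effect of -2.57 ± 0.29 (adjusted p = 0.00482). Mepe, a phosphoglycoprotein of bone matrix, lay between -4.80 and -3.92 (median -4.36) in blocked cultures and between -2.61 and -1.54 (median -2.07) in untreated cultures, an effect of -2.30 ± 0.08 (adjusted p = 0.000254). Both were lower on every blocked array than on any untreated one. Rd3l, a relative of a retinal guanylate cyclase regulator, changed by -2.27 ± 0.09, Blnk, an adaptor of B cell receptor signalling, by -2.20 ± 0.16, and Serpinb2, an inhibitor of plasminogen activators, by -2.17 ± 0.15. Crisp3, a secreted cysteine-rich protein, changed by -2.08 ± 0.10, Cga, the common subunit of glycoprotein hormones, by -2.07 ± 0.16, and Anxa10, an annexin, by -1.99 ± 0.13. Cdkn1c, a cyclin-dependent kinase inhibitor that restrains division, changed by -2.01 ± 0.19 (adjusted p = 0.00289), and the difference of its group means was the larger at 9 h (-2.77 at 9 h and -1.25 at 26 h). Of the 20 largest falls, 3 lay below background on a blocked group, so their bounds hold on the scale of these levels only. Spesp1, known from the sperm acrosome, was at least 2.25-fold lower, and Nmbr, the receptor of neuromedin B, at least 2.74-fold. The olfactory receptor gene Or10al4c was at least 2.34-fold lower. In the limma fit to the levels before any bound was set, their adjusted p-values were 0.0191, 0.000139 and 0.000661. Spesp1 was well above background on 0 of 6 blocked and 6 of 6 untreated arrays, Nmbr on 3 and 6, and Or10al4c on 2 and 6. Without the slide term Crisp3 did not pass (adjusted p = 0.0524). After normexp correction Cga, Anxa10, Spesp1, Nmbr and Or10al4c had smaller effects of -1.30, -1.30, -0.37, -0.55 and -0.43. Spesp1 did not pass in every fit with 1 slide left out (highest adjusted p = 0.0693).

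**Figure D1:**
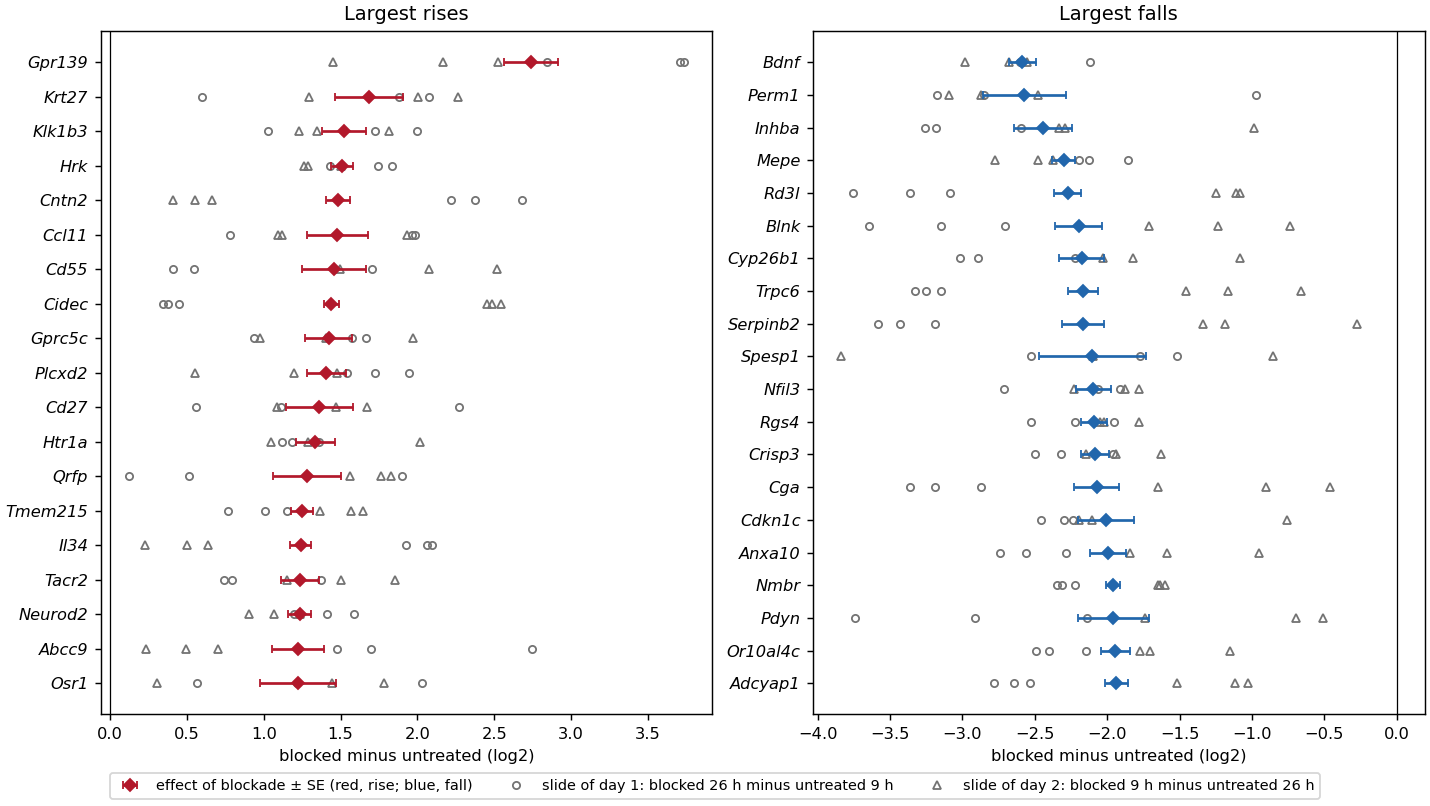
Effect of blockade on 19 of the 20 largest rises (left) and on the 20 largest falls (right) among named genes outside the immediate early set, in log2 units, blocked minus untreated; diamonds are fitted effects with SE, circles and triangles the 6 differences within slides. All 6 slides lie on one side of 0 for every gene shown, as the choice of genes required, and the largest fitted effects are 2.74 for Gpr139 and -2.59 for Bdnf.

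The largest rise was that of Gpr139, an orphan receptor of the brain, which lay between -6.03 and -4.61 (median -5.03) in blocked cultures and between -8.40 and -7.48 (median -7.86) in untreated cultures. It was well above background on 6 of 6 blocked arrays and on 3 of 6 untreated arrays. With an untreated group below background, blocked cultures were at least 5.50-fold higher on the scale of these levels. The adjusted p of 0.00131 is that of the limma fit to the levels before any bound was set. Gpr139 was among the 28 of 153 genes named by rule with an effect over 1.5 times smaller after normexp background correction (1.1 against 2.74). Hrk, a pro-apoptotic BH3-only protein of neurons, lay between -0.17 and 0.57 (median 0.29) in blocked cultures and between -1.44 and -1.03 (median -1.31) in untreated cultures. All 6 blocked arrays exceeded all 6 untreated arrays, and the effect was 1.51 ± 0.07 (adjusted p = 0.000539), or 0.94 as a mean over its probes. Cntn2, an axonal adhesion molecule of the contactin family, lay between -2.66 and -1.74 (median -2.27) in blocked cultures and between -4.65 and -3.07 (median -3.63) in untreated cultures, with an effect of 1.48 ± 0.08 (adjusted p = 0.000675). Neurod2, a transcription factor of excitatory neurons, lay between 1.34 and 2.04 (median 1.76) in blocked cultures and between -0.00 and 1.05 (median 0.44) in untreated cultures. Its rise of 1.24 ± 0.07 (adjusted p = 0.00103) separated the groups without overlap. Il34, a ligand of the receptor Csf1r that neurons secrete, lay between 0.03 and 1.80 (median 1.12) in blocked cultures and between -0.47 and -0.00 (median -0.27) in untreated cultures, and its effect was 1.24 ± 0.07 (adjusted p = 0.000846), with 0.61 at 9 h and 1.87 at 26 h.

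Further rises included Cidec, a lipid droplet protein (1.44 ± 0.05), Plcxd2, a member of a phospholipase C related family (1.41 ± 0.13), and the membrane proteins Tmem215 (1.25 ± 0.07) and Gprc5c (1.42 ± 0.15). Tmem215 had 2.30 at 9 h and 0.20 at 26 h. Krt27, a keratin, changed by 1.69 ± 0.22, Ccl11, a chemokine for eosinophils, by 1.48 ± 0.20, Cd55, an inhibitor of complement, by 1.46 ± 0.21, and Osr1, a zinc finger factor, by 1.22 ± 0.25. Ccl11 was well above background on 5 of 6 blocked and 2 of 6 untreated arrays and Cd55 on 6 and 3, so both were dim. Lower bounds on the scale of these levels apply to Klk1b3, a kallikrein protease (at least 2.46-fold higher), Cd27, a receptor of the TNF family (at least 2.01-fold), Qrfp, the precursor of a neuropeptide (at least 1.95-fold), and Abcc9, a subunit of ATP-sensitive potassium channels (at least 1.77-fold), each with an untreated group below background. Ccl11, Osr1 and Cd27 did not pass without the slide term (adjusted p = 0.0907 to 0.222). Above the threshold elsewhere were Osr1 with no filter on dim probes (adjusted p = 0.0655). Normexp correction gave Tmem215, Gprc5c, Krt27, Ccl11, Cd55, Osr1, Klk1b3, Cd27, Qrfp and Abcc9 smaller effects of 0.59, 0.72, 0.96, 0.30, 0.47, 0.59, 0.46, 0.28, 0.37 and 0.32. With 1 slide left out, Osr1, Cd27 and Qrfp could miss the threshold (highest adjusted p = 0.0627 to 0.110).

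**Figure D2:**
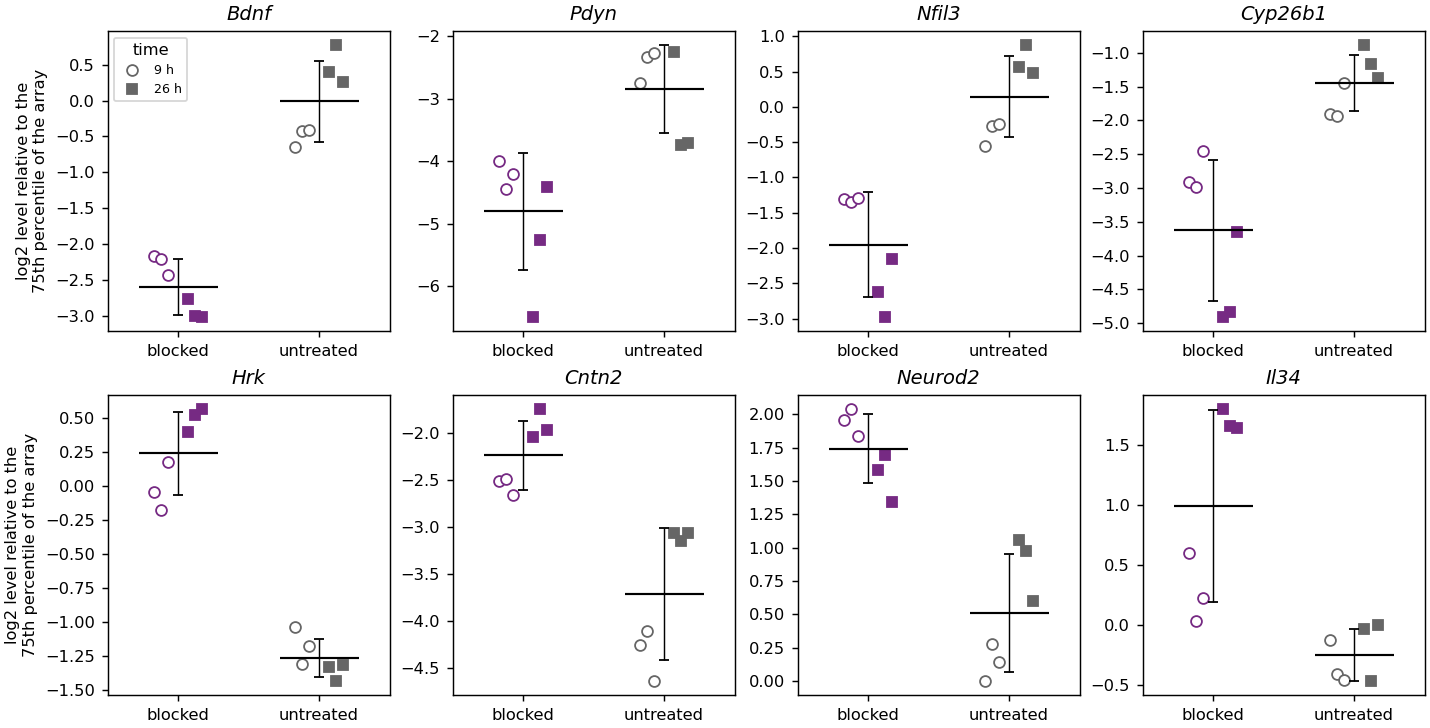
Level of 8 genes on each array, blocked left of untreated, in log2 units relative to the 75th percentile of the array; open circles are 9 h and filled squares 26 h arrays, and lines with bars are the mean ± SD over 6 arrays. The top row shows falls and the bottom row rises; Bdnf, for example, lies between -3.02 and -2.16 on blocked arrays and between -0.64 and 0.78 on untreated ones.

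Promoter sequences were available in the RefSeq table (build GRCr8) for 18 of the 20 largest falls and 14 of the 20 largest rises, and the 200 bases before the start of 6 of these genes are shown to mark where 3 of the motifs searched lie. Capitals mark exact matches, on either strand, to TATAAA, the TATA box that positions the polymerase, to TGANTCA, the AP-1 site, and to CAGATG, an E-box bound by NeuroD-type factors.
Inhba: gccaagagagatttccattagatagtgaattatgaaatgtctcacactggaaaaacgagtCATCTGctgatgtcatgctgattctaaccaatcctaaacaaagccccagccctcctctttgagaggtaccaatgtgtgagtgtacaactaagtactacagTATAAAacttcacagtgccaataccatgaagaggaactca
Rgs4: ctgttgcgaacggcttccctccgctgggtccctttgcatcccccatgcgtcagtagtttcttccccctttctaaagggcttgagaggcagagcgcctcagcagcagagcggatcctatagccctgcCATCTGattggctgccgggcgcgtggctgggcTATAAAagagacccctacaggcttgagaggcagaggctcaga
Cga: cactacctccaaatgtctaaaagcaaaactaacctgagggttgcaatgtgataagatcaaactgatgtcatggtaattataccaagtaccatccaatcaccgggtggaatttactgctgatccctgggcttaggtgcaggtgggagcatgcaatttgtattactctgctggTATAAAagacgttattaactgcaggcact
Anxa10: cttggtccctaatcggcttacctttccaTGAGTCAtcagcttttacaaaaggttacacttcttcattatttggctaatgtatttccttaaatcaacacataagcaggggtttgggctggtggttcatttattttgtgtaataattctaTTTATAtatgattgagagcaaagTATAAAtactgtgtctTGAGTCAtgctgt
Mepe: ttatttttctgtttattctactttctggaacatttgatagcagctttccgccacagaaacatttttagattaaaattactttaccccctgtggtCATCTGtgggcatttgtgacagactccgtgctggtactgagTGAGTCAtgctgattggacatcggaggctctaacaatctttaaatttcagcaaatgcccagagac
Neurod2: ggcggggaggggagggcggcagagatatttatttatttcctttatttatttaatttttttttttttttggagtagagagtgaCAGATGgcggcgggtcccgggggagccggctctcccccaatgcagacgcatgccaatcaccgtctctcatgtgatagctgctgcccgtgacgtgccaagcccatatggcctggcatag
These windows lie at chr17:53804509-53804708 (Inhba, minus strand), chr13:84475885-84476084 (Rgs4, minus strand), chr5:54283140-54283339 (Cga, plus strand), chr16:32504825-32505024 (Anxa10, plus strand), chr14:5736859-5737058 (Mepe, minus strand) and chr10:83824278-83824477 (Neurod2, minus strand). The TATA match starts 40 bases before the gene in Inhba, 42 in Rgs4, 29 in Cga, and 52 and 29 in Anxa10, which also has AP-1 matches 172 and 13 bases before its start. Mepe has an AP-1 match 65 bases before its start. The NeuroD-type E-box stands 118 bases before the start of Neurod2, 140 before Inhba, 74 before Rgs4 and 106 before Mepe.

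Over the whole window of 250 bases before to 50 after the start, TATAAA was present in 19 of 84 promoters of genes at least 2-fold lower (22.6%), in 4 of 39 of genes at least 2-fold higher (10.3%), and in 903 of 10103 promoters of all tested genes (8.9%). Over all lower genes the share was 10.2%, and over all higher genes 7.0%, close to that of all genes. Immediate early genes were not left out of these sets of promoters or of those below. The AP-1 motif stood in 15.5% of the promoters of genes at least 2-fold lower, in 12.8% of those at least 2-fold higher, and in 5.6% of all. CAGATG was found in 15.5%, 23.1% and 12% of the same promoters. The full cAMP response element TGACGTCA was matched in 3.6% of the genes at least 2-fold lower, 2.6% of those at least 2-fold higher and 3.0% of all, and the shorter TGACG, which it contains, in 34.5%, 23.1% and 29.6%. GCGTGGGCG, an EGR site, and CACGTG, another E-box, were present in 0 and 6.0% of promoters at least 2-fold lower, against 0.9% and 8.8% of all. The CArG box of SRF was matched in 1.2% of both. These shares are descriptions without a test. A match is no evidence that a factor binds there, and 250 bases leave out enhancers and alternative starts.

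Growth factor and peptide genes fell more often than they rose. Among secreted growth factors and their antagonists, 5 of 63 tested members rose and 10 fell (2 and 4 without the replicate 3 arrays; median -0.10 log2), against 5.38% higher and 5.33% lower over all genes tested. Besides Bdnf and Inhba, which had the largest falls, the lower members included Igf1 (-0.69 ± 0.10, adjusted p = 0.00952), a survival factor, and Nrg1 (-0.66 ± 0.07, adjusted p = 0.00431), a ligand of ErbB receptors. Igf1 lay between -0.88 and -0.51 (median -0.76) in blocked cultures and between -0.67 and 0.39 (median 0.05) in untreated cultures. Tgfb3, a ligand of TGF-beta receptors, lay between -2.63 and -1.75 (median -2.19) in blocked cultures and between -3.60 and -3.03 (median -3.28) in untreated cultures, and rose without overlap by 1.13 ± 0.06 (adjusted p = 0.000781). Gdf10, a member of the same superfamily, also rose (1.01 ± 0.16, adjusted p = 0.0144). Chrd, an antagonist of BMP ligands, rose (0.79 ± 0.07), while Chrdl1, a related antagonist, fell (-0.89 ± 0.18). The ligand Bmp4 (-0.73 ± 0.12) and Angpt2, a vascular ligand (-0.90 ± 0.15), fell too. For Angpt2 the blocked array was the higher one on the slides scanned on day 2. A fit without the slide term left Bmp4 and Angpt2 above the threshold (adjusted p = 0.314 to 0.420). Calls were also lost for Angpt2 with slide as a random block, and for Angpt2 after normexp correction, and for Chrdl1 with no filter on dim probes (adjusted p = 0.0679 to 0.141). With normexp correction Angpt2 had a smaller effect of -0.39. Leaving out 1 slide took Chrdl1, Bmp4 and Angpt2 above the threshold (highest adjusted p = 0.0652 to 0.107). The number of lower growth factor genes was 5 to 10 with 1 slide left out at a time and 7 without the slide term.

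Neuropeptide genes fell more often than they rose: 2 of 34 tested members rose and 8 fell (0 and 6 without the replicate 3 arrays; median -0.12 log2). Pdyn, the precursor of dynorphin, lay between -6.49 and -3.99 (median -4.42) in blocked cultures and between -3.74 and -2.25 (median -2.55) in untreated cultures, and fell by 1.96 on the log2 scale (adjusted p = 0.00660). Adcyap1, the precursor of PACAP, lay between -3.64 and -2.13 (median -3.12) in blocked cultures and between -1.57 and -0.81 (median -1.0) in untreated cultures, with an effect of -1.94 ± 0.08 (adjusted p = 0.000356). No blocked array overlapped the untreated ones for either gene. Members outside the naming rule, chosen after their values were seen, were Crh (-1.87 ± 0.07), the corticotropin releasing hormone, Tac1 (-1.87 ± 0.20), the precursor of substance P, Penk (-1.60 ± 0.18), the precursor of enkephalins, and Pcsk1 (-1.46 ± 0.06), a convertase that cuts such precursors. Vip also fell (-0.61 ± 0.07). Crh and Pcsk1 were lower on all 6 blocked arrays than on any untreated array, while Tac1, Penk and Vip overlapped. Nppc, the precursor of C-type natriuretic peptide (0.89 ± 0.14), and Pcsk1n, an inhibitor of Pcsk1 (0.33 ± 0.07), rose. Qrfp, a neuropeptide precursor outside the list, was among the 20 largest rises. Another processing ended the call of Pcsk1n with no filter on dim probes (adjusted p = 0.0611). The calls of Nppc and Pcsk1n did not hold for each slide left out in turn (highest adjusted p = 0.0553 to 0.0969). The number of lower peptide genes was 7 to 9 with 1 slide left out at a time and 8 without the slide term.

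Guidance and patterning genes stood on both sides. In the list of axon guidance ligands and receptors, 6 of 51 tested members rose and 2 fell (1 and 0 without the replicate 3 arrays; median 0.06 log2). Sema3c, a secreted semaphorin, rose by 0.65 ± 0.06 (adjusted p = 0.00310), and Efna1, an ephrin, by 0.53 ± 0.09 (adjusted p = 0.0160), whereas Plxnb3, a plexin, and Slit3, a ligand of Robo receptors, were lower (-0.68 ± 0.14 and -0.41 ± 0.09). In the Wnt pathway, 6 of 44 tested members rose and 4 fell (2 and 0 without the replicate 3 arrays; median 0.05 log2). Rspo3, an R-spondin that strengthens Wnt signalling, lay between -3.51 and -1.31 (median -2.64) in blocked cultures and between -3.97 and -2.96 (median -3.78) in untreated cultures, and Wnt4, a Wnt ligand, between -0.94 and 0.11 (median -0.37) in blocked cultures and between -1.83 and -0.84 (median -1.5) in untreated cultures. They rose by 1.07 ± 0.13 and 1.04 ± 0.14 (adjusted p = 0.00656 and 0.00786), and both overlapped between the groups. Sfrp2, a secreted Wnt antagonist, fell (-0.63 ± 0.07, adjusted p = 0.00545), as did Wnt5a (-0.38 ± 0.05). In the Notch pathway, 1 of 21 tested members rose and 4 fell (0 and 0 without the replicate 3 arrays; median -0.17 log2), the falls led by Nrarp, a feedback inhibitor (-0.88 ± 0.14), and Lfng, a fringe enzyme that modifies Notch (-0.71 ± 0.07), while its relative Mfng rose (0.69 ± 0.11). Plxnb3, Wnt5a, Nrarp and Lfng depended on the slide term (adjusted p = 0.0510 to 0.445 without it). The threshold was missed by Wnt5a with slide as a random block, and Plxnb3 after quantile normalization, and Plxnb3 after normexp correction, and Plxnb3 and Slit3 with no filter on dim probes (adjusted p = 0.0688 to 0.148). Plxnb3, Sfrp2 and Wnt5a had smaller effects after normexp correction, at -0.23, -0.36 and -0.25. Efna1, Plxnb3, Slit3, Nrarp and Mfng did not pass in every fit with 1 slide left out (highest adjusted p = 0.0585 to 0.142).

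Receptor genes changed in both directions. In the list of modulatory and orphan G protein coupled receptors, 12 of 85 tested members rose and 14 fell (4 and 3 without the replicate 3 arrays; median -0.003 log2). Besides Gpr139, Htr1a, a serotonin receptor, lay between -6.02 and -4.92 (median -5.62) in blocked cultures and between -7.21 and -6.05 (median -6.89) in untreated cultures, and rose without overlap by 1.33 ± 0.13 (adjusted p = 0.00289). Outside the list, Tacr2, the neurokinin A receptor, was among the 20 largest rises (1.24 ± 0.12, adjusted p = 0.00326), and Nmbr among the 20 largest falls. Oprl1, the nociceptin receptor, and Adra2c, an adrenergic receptor, both chosen after their values were seen, rose by 0.96 ± 0.07 (adjusted p = 0.00189) and 0.85 ± 0.09. Cckbr, a receptor of cholecystokinin, lay between -3.71 and -2.45 (median -3.26) in blocked cultures and between -2.12 and -1.84 (median -2.04) in untreated cultures, the largest fall of the list among members past the threshold (-1.17 ± 0.10, adjusted p = 0.00194). Tacr3, the neurokinin B receptor, Sstr1, a somatostatin receptor, and Ptger3, a prostaglandin receptor, also fell (-0.90 ± 0.10, -0.90 ± 0.09 and -0.89 ± 0.15). Among growth factor and cytokine receptors, 6 of 56 tested members rose and 5 fell (1 and 1 without the replicate 3 arrays; median -0.01 log2). Gfra2, a coreceptor of neurturin, lay between -2.07 and -1.47 (median -1.93) in blocked cultures and between -3.08 and -2.65 (median -2.86) in untreated cultures and rose by 1.03 ± 0.07 (adjusted p = 0.00152). Its 3 probes disagreed, since the effect was 0.62 as a mean over probes and 0.046 for the probe chosen after quantile normalization. Kit, the receptor of stem cell factor, rose by 0.52 ± 0.07, while Sorcs3, a sortilin family receptor, and Fgfr3, a fibroblast growth factor receptor, fell (-0.81 ± 0.07 and -0.66 ± 0.09). Fitted without slides, Tacr3 and Fgfr3 did not pass (adjusted p = 0.0524 to 0.0912). Above the threshold elsewhere were Gfra2 after quantile normalization (adjusted p = 0.823). After normexp correction Htr1a, Oprl1 and Ptger3 had smaller effects of 0.57, 0.51 and -0.32. With 1 slide left out, Ptger3 could miss the threshold (highest adjusted p = 0.0674).

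Among glutamate receptor genes and AMPA receptor auxiliary genes, 7 of 44 tested members rose and 2 fell (1 and 1 without the replicate 3 arrays; median 0.11 log2). Gria1, a subunit of the AMPA receptor, lay between -1.61 and -1.24 (median -1.37) in blocked cultures and between -2.58 and -1.57 (median -2.01) in untreated cultures, and rose by 0.64 ± 0.11 (adjusted p = 0.0177). Nptx2, a pentraxin that gathers AMPA receptors, fell by 1.12 on the log2 scale (adjusted p = 0.00211), and Grin2c, an NMDA receptor subunit, by 0.41 (adjusted p = 0.0300). At inhibitory synapses, 2 of 29 tested members rose and 3 fell (0 and 1 without the replicate 3 arrays; median 0.04 log2). Gabrd, the delta subunit of extrasynaptic GABA-A receptors, changed by -0.81 ± 0.08 (adjusted p = 0.00366), with -0.06 at 9 h and -1.56 at 26 h, and Gabra4 by -0.33 ± 0.06. Slitrk3, an organiser of inhibitory synapses (0.38 ± 0.05), and Gabra5 (0.33 ± 0.05) rose. Without the slide term Grin2c, Slitrk3 and Gabra5 did not pass (adjusted p = 0.0928 to 0.346). Calls were also lost for Grin2c in the deposited matrix, and for Grin2c and Gabra4 with no filter on dim probes (adjusted p = 0.0549 to 0.0650). Leaving out 1 slide took Gria1, Grin2c, Gabra4 and Gabra5 above the threshold (highest adjusted p = 0.0642 to 0.107).

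Scaffolds and release proteins changed by small amounts, with a few exceptions. In the postsynaptic density list, 3 of 37 tested members rose and 4 fell (0 and 0 without the replicate 3 arrays; median 0.13 log2). Nrgn, a calmodulin-binding protein of spines, and Rapgef2, an exchange factor for Rap, rose (0.46 ± 0.09 and 0.45 ± 0.06), and Iqsec3 and Dlgap3, scaffold proteins, were lower (-0.47 ± 0.08 and -0.42 ± 0.09). Dlgap3 was lower on average only, since its group means were higher with blockade at 9 h and lower at 26 h. In the presynaptic list, 6 of 63 tested members rose and 4 fell (0 and 0 without the replicate 3 arrays; median 0.10 log2). Unc13b, which primes synaptic vesicles, lay between -5.26 and -4.05 (median -4.54) in blocked cultures and between -3.91 and -2.61 (median -2.95) in untreated cultures. It fell by 1.5 on the log2 scale without overlap (adjusted p = 0.00496). Syt10, a synaptotagmin, also fell (-0.95 ± 0.14, adjusted p = 0.0115), while Doc2b, a calcium sensor of release, and Slc17a7, the vesicular glutamate transporter VGLUT1, rose (0.67 ± 0.06 and 0.53 ± 0.07). Nrgn, Rapgef2, Iqsec3 and Dlgap3 did not pass without the slide term (adjusted p = 0.0674 to 0.245). Another processing ended the call of Nrgn and Dlgap3 with no filter on dim probes (adjusted p = 0.0593 to 0.0637). Normexp correction gave Syt10 and Doc2b smaller effects of -0.39 and 0.41. The calls of Nrgn, Iqsec3, Dlgap3 and Syt10 did not hold for each slide left out in turn (highest adjusted p = 0.0504 to 0.114).

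Ion channel genes past the threshold were more often higher than lower, but this balance did not hold under every alternative. Among sodium and calcium channels, 9 of 38 tested members rose and 3 fell (1 and 1 without the replicate 3 arrays; median 0.10 log2), and the higher count was 2 to 6 with 1 slide left out at a time and 1 without the slide term, the lower count 1 to 4 with 1 slide left out at a time and 2 without the slide term. Orai2, a store-operated calcium channel, lay between -2.58 and -2.10 (median -2.24) in blocked cultures and between -3.88 and -2.97 (median -3.22) in untreated cultures, and rose by 1.0 ± 0.10 (adjusted p = 0.00286) without overlap. Trpc6, a receptor-operated cation channel, lay between -4.45 and -2.61 (median -3.51) in blocked cultures and between -1.95 and -0.88 (median -1.33) in untreated cultures, a fall of 2.17 on the log2 scale (adjusted p = 0.000548). Scn3b, an auxiliary sodium channel subunit, rose (0.52 ± 0.10), and Cacna2d1, an auxiliary calcium channel subunit, was lower (-0.36 ± 0.05). Among potassium, HCN and chloride channels, 13 of 72 tested members rose and 6 fell (1 and 2 without the replicate 3 arrays; median 0.05 log2), and the higher count was 5 to 9 with 1 slide left out at a time and 7 without the slide term, the lower count 5 to 6 with 1 slide left out at a time and 4 without the slide term. Kcnj4, an inward rectifier, lay between -3.01 and -2.50 (median -2.78) in blocked cultures and between -2.07 and -1.2 (median -1.62) in untreated cultures and fell by 1.16 on the log2 scale (adjusted p = 0.00245), and Kcna4, an A-type channel, by 0.93 (adjusted p = 0.00168). Kcnj12, another inward rectifier, and Kcnc4, a channel of the fast Kv3 type, rose (0.88 ± 0.20 and 0.65 ± 0.08), so inward rectifier genes stood on both sides. Of the ion pumps and exchangers, 4 of 29 tested members rose and 1 fell (1 and 0 without the replicate 3 arrays; median 0.02 log2); Slc24a2, a sodium, calcium and potassium exchanger, rose by 0.87 ± 0.07 (adjusted p = 0.00211), and Atp2a2, the calcium pump of the endoplasmic reticulum, was lower (-0.34 ± 0.06). A fit without the slide term left Scn3b and Kcnj12 above the threshold (adjusted p = 0.0569 to 0.0972). The threshold was missed by Scn3b and Kcnj12 with no filter on dim probes, and Atp2a2 with a mean over probes (adjusted p = 0.0560 to 0.0844). Scn3b, Cacna2d1, Kcnj12 and Atp2a2 did not pass in every fit with 1 slide left out (highest adjusted p = 0.0550 to 0.111). By group means, Cacna2d1 and Atp2a2 were higher with blockade at 9 h and lower at 26 h.

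Regulators of MAPK and G protein signalling showed one of the most one-sided patterns: 2 of 49 tested members rose and 15 fell (0 and 3 without the replicate 3 arrays; median -0.11 log2). Rgs4, which shortens signalling of Gq and Gi proteins, lay between 0.25 and 1.41 (median 0.89) in blocked cultures and between 2.65 and 3.41 (median 3.0) in untreated cultures. It changed by -2.09 ± 0.09 (adjusted p = 0.000356), and Rgs2, a relative, by -1.75 ± 0.08 (adjusted p = 0.000539), both without overlap. Chosen after their values were seen, Spry4, a feedback inhibitor of receptor tyrosine kinases (-1.14 ± 0.12, or -0.62 as a mean over its probes), Rasl11b, a small GTPase (-1.06 ± 0.08), and Dusp4, a MAPK phosphatase (-0.93 ± 0.12), were also lower on every blocked array than on any untreated one. The MAPK phosphatases Dusp5 and Dusp6 (-0.81 ± 0.16 and -0.79 ± 0.14) and Rasgrp1, a calcium-responsive activator of Ras (-1.0 ± 0.16), fell as well. Rasl10a, another small GTPase, rose (0.98 ± 0.14). The number of lower members was 9 to 12 with 1 slide left out at a time and 11 without the slide term, against 5.33% of all genes tested. In the list of calcium, calmodulin and cAMP signalling, 7 of 65 tested members rose and 5 fell (0 and 1 without the replicate 3 arrays; median 0.02 log2). Adcy8, an adenylyl cyclase stimulated by calmodulin, lay between -3.43 and -2.68 (median -3.18) in blocked cultures and between -2.42 and -1.73 (median -2.39) in untreated cultures, a fall without overlap (-0.94 ± 0.09, adjusted p = 0.00294). Camk1g, a calmodulin-dependent kinase, also fell (-0.56 ± 0.07), and Camkk1, a kinase that activates this family, and Pde1a, a calmodulin-dependent phosphodiesterase, rose (0.72 ± 0.09 and 0.66 ± 0.10). Dusp5 and Rasl10a depended on the slide term (adjusted p = 0.0725 to 0.0830 without it). Above the threshold elsewhere were Dusp5 with no filter on dim probes (adjusted p = 0.0569). With normexp correction Rasgrp1 had a smaller effect of -0.25. With 1 slide left out, Dusp5, Dusp6, Rasgrp1 and Pde1a could miss the threshold (highest adjusted p = 0.0652 to 0.0979).

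Changes of cytoskeletal genes were all below 2-fold among those past the threshold. Among small GTPases, actin and spine regulators, 8 of 54 tested members rose and 7 fell (0 and 0 without the replicate 3 arrays; median -0.01 log2), with Rhov (0.54 ± 0.08) and Cdc42ep3 (0.50 ± 0.07), a GTPase and an effector of Cdc42, among the rises. Tpm4, a tropomyosin, and Actn1, an actinin, were lower (-0.51 ± 0.07 and -0.56 ± 0.13). For Actn1 the blocked array was the higher one on the slides scanned on day 2. Among microtubule, motor and neurofilament genes, 3 of 42 tested members rose and 4 fell (0 and 0 without the replicate 3 arrays; median 0.04 log2). Clasp2, a microtubule plus-end protein, rose by 0.39 ± 0.05 (adjusted p = 0.00585), and Nefl, the light neurofilament subunit, was lower (-0.35 ± 0.08). Fitted without slides, Tpm4, Actn1 and Nefl did not pass (adjusted p = 0.114 to 0.319). Calls were also lost for Nefl after scaling to the median, and for Nefl in the deposited matrix, and for Actn1 and Nefl with no filter on dim probes (adjusted p = 0.0666 to 0.0886). Leaving out 1 slide took Rhov, Actn1 and Nefl above the threshold (highest adjusted p = 0.0527 to 0.137).

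Among transcription factors outside the immediate early set, 18 of 116 tested members rose past the threshold and 11 fell (6 and 3 without the replicate 3 arrays, median -0.001 log2). The list as a whole had no shared direction. Of its effects, 58 of 116 were above 0, and 25 were higher and 24 lower at an unadjusted limma p under 0.05. The higher count past the threshold was 12 to 16 with 1 slide left out at a time and 16 without the slide term. Neurod2 and Runx1t1, a corepressor, had the largest rises of the list (1.24 ± 0.07 and 1.04 ± 0.06). Osr1, a zinc finger factor outside the list, rose by 1.22. Runx1t1 lay between -0.73 and 0.78 (median 0.10) in blocked cultures and between -1.56 and -0.24 (median -0.98) in untreated cultures. Dlx1, a homeodomain factor of interneurons, rose by 1.03 ± 0.07 (adjusted p = 0.00168), with 0.31 at 9 h and 1.75 at 26 h, and Neurod6 and Bhlhe22, factors of excitatory neurons, by 0.56 ± 0.07 and 0.68 ± 0.08. Crem, whose short product represses CREB targets, fell by 0.87 on the log2 scale (adjusted p = 0.00370). Among clock and clock output genes, 2 of 16 tested members rose and 4 fell (1 and 1 without the replicate 3 arrays; median -0.07 log2). Tef, a basic leucine zipper activator of the same output pathway as the repressor Nfil3, rose without overlap (0.74 ± 0.05, adjusted p = 0.00168), while Nfil3 and Cry2, a clock repressor (-0.58 ± 0.06), fell. Nr1d2, a nuclear receptor of the clock, rose (0.45 ± 0.10). Of the chromatin regulators, 3 of 41 tested members rose and 1 fell (0 and 0 without the replicate 3 arrays; median 0.02 log2). Hdac5, a class II histone deacetylase, lay between -0.44 and 0.01 (median -0.10) in blocked cultures and between 0.10 and 0.73 (median 0.49) in untreated cultures, a fall without overlap (-0.61 ± 0.05, adjusted p = 0.00211), and Ezh1 and Cbx7, Polycomb proteins, rose (0.45 ± 0.07 and 0.38 ± 0.06). Without the slide term Ezh1 and Cbx7 did not pass (adjusted p = 0.116 to 0.164). Another processing ended the call of Nr1d2 with no filter on dim probes, and of Ezh1 with a mean over probes (adjusted p = 0.0714 to 0.0808). Nr1d2 had a smaller effect after normexp correction, at 0.28. The calls of Nr1d2, Ezh1 and Cbx7 did not hold for each slide left out in turn (highest adjusted p = 0.0626 to 0.127).

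Genes for RNA binding proteins and splicing factors were mostly higher where they passed the threshold: 9 of 45 tested members rose and 1 fell (0 and 0 without the replicate 3 arrays, median 0.01 log2). Over the list, 24 of 45 effects were above 0, and 12 were higher and 8 lower at an unadjusted limma p under 0.05. The higher count past the threshold was 1 to 5 with 1 slide left out at a time and 3 without the slide term. Rbfox2, a splicing regulator, and Cpeb1, which controls polyadenylation in dendrites, rose (0.45 ± 0.07 and 0.44 ± 0.07), and Khdrbs2, a splicing factor, was lower (-0.50 ± 0.08). Each of these changes was below 1.5-fold. Among ubiquitin ligases, adaptors and deubiquitinases, 7 of 53 tested members rose and 3 fell (1 and 1 without the replicate 3 arrays; median 0.04 log2). Rnf112, a neuronal RING finger protein, lay between 1.0 and 1.52 (median 1.28) in blocked cultures and between -0.07 and 0.83 (median 0.27) in untreated cultures, a rise without overlap (0.93 ± 0.06, adjusted p = 0.00159). Rnf182, another RING finger ligase, also rose (0.67 ± 0.09), and Rnf39 and Marchf11, a further pair of RING proteins, fell (-0.93 ± 0.12 and -0.70 ± 0.06). Marchf11 fell on average only, since its group means were higher with blockade at 9 h and lower at 26 h. Cpeb1 and Khdrbs2 did not pass without the slide term (adjusted p = 0.135 to 0.262). After normexp correction Khdrbs2 had a smaller effect of -0.31. Rbfox2, Cpeb1 and Khdrbs2 did not pass in every fit with 1 slide left out (highest adjusted p = 0.0584 to 0.0639).

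Genes of adhesion rose more often than they fell, and those of extracellular matrix the reverse. In the adhesion list, 12 of 87 tested members rose and 5 fell (5 and 1 without the replicate 3 arrays; median 0.07 log2). Cntn2 led the rises, and Rtn4r, the Nogo receptor, lay between -0.57 and -0.16 (median -0.35) in blocked cultures and between -1.49 and -0.94 (median -1.27) in untreated cultures, and rose without overlap by 0.88 ± 0.05 (adjusted p = 0.00103). Pcdh19, Cdh9 and Cdh11, cadherin superfamily members chosen after their values were seen, rose by 0.76 ± 0.07, 0.72 ± 0.06 and 0.70 ± 0.06, each without overlap. Pcdh8, a protocadherin that drives the removal of synaptic cadherin, lay between -0.25 and 1.03 (median 0.47) in blocked cultures and between 1.31 and 2.14 (median 1.78) in untreated cultures and fell by 1.31 on the log2 scale (adjusted p = 0.00289). Amigo2, an adhesion protein of hippocampal subfields, fell on average (-0.95 ± 0.11, adjusted p = 0.00600), with 0.23 at 9 h and -2.13 at 26 h. Among matrix genes, proteases and inhibitors, 2 of 76 tested members rose and 9 fell (0 and 2 without the replicate 3 arrays; median -0.11 log2). Mepe and Ism1, a secreted thrombospondin-repeat protein (-1.70 ± 0.13, adjusted p = 0.00186), had the largest falls. Mmp9, a gelatinase that remodels perisynaptic matrix, was at least 1.83-fold lower on the scale of these levels (adjusted p = 0.00574 in the fit before the bound). Acan, a core proteoglycan of perineuronal nets, was lower (-0.57 ± 0.13), and Sdc3, a syndecan, higher (0.41 ± 0.07). For Acan the blocked array was the higher one on the slides scanned on day 2. The threshold was missed by Acan after normexp correction, and Acan with no filter on dim probes, and Acan with array weights (adjusted p = 0.0511 to 0.0866). Normexp correction gave Mmp9 and Acan smaller effects of -0.31 and -0.36. With 1 slide left out, Acan and Sdc3 could miss the threshold (highest adjusted p = 0.0718 to 0.114).

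Cell death genes stood on both sides: 5 of 38 tested members rose and 2 fell (3 and 1 without the replicate 3 arrays; median 0.06 log2). Hrk and Txnip, an inhibitor of thioredoxin (1.04 ± 0.15), had the largest rises, and Bbc3, the BH3-only protein Puma, chosen after its value was seen, lay between 0.15 and 1.49 (median 0.79) in blocked cultures and between -0.25 and 0.47 (median -0.14) in untreated cultures, and rose by 0.86 ± 0.08 (adjusted p = 0.00280). Serpinb2 lay between -4.66 and -2.29 (median -3.50) in blocked cultures and between -2.01 and -0.30 (median -1.19) in untreated cultures, and fell by 2.17 on the log2 scale (adjusted p = 0.00152). Casp8, an initiator caspase, was at least 2.10-fold lower on the scale of these levels (adjusted p = 0.0107 in the fit before the bound). In the list of unfolded protein, integrated stress and heat shock responses, 0 of 36 tested members rose and 7 fell (0 and 0 without the replicate 3 arrays; median -0.16 log2). Sdf2l1, a cofactor of chaperones in the endoplasmic reticulum, changed by -0.59 ± 0.05 (adjusted p = 0.00211), and Ppp1r15a, a phosphatase subunit that ends the stress response, by -0.67 ± 0.14. The lower count of this list was 2 to 5 with 1 slide left out at a time and 5 without the slide term. No member of the list of oxidant defence and metal handling passed the limma threshold (0 higher and 1 lower of 27 tested at an unadjusted p under 0.05), and their effects lay between -0.38 and 0.13 log2. A fit without the slide term left Txnip and Casp8 above the threshold (adjusted p = 0.0558 to 0.0779). Above the threshold elsewhere were Ppp1r15a with no filter on dim probes (adjusted p = 0.0636). With normexp correction Casp8 had a smaller effect of -0.39. Leaving out 1 slide took Txnip and Ppp1r15a above the threshold (highest adjusted p = 0.0512 to 0.0881).

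Lipid genes rose more often than they fell: 11 of 73 tested members rose and 4 fell (1 and 0 without the replicate 3 arrays; median 0.14 log2). Scd, the desaturase that makes oleate, and Insig1, a sterol-dependent anchor of the SREBP pathway, rose by 0.84 ± 0.16 (adjusted p = 0.0252) and 0.76 ± 0.12 (adjusted p = 0.0154). Scd lay between 1.39 and 2.39 (median 2.17) in blocked cultures and between 0.83 and 1.49 (median 1.26) in untreated cultures, with overlap. Chosen after their values were seen, Abcg1, a cholesterol exporter, rose by 0.75 ± 0.09, Fasn, the fatty acid synthase, by 0.59 ± 0.08, and Dagla, which makes the endocannabinoid arachidonoylglycerol, by 0.65 ± 0.05, the last without overlap. Of the cholesterol synthesis enzymes, Dhcr7, Fdps and Mvk rose (0.67 ± 0.10, 0.51 ± 0.12 and 0.39 ± 0.07), with their regulator Srebf2 (0.34 ± 0.05). Pla2g4a, a phospholipase that releases arachidonate, was lower (-0.80 ± 0.17). The higher count was 5 to 20 with 1 slide left out at a time and 7 without the slide term. Genes of glycolysis, mitochondria and energy sensing changed at about the rate of all genes or below: 3 of 66 tested members rose and 2 fell (0 and 0 without the replicate 3 arrays; median -0.08 log2). Prkag2, a subunit of the energy sensor AMPK, rose on average by 0.46 ± 0.06, with group means higher with blockade at 9 h and lower at 26 h. Among transporters of nutrients, amino acids and monoamines, 2 of 48 tested members rose and 7 fell (0 and 0 without the replicate 3 arrays; median -0.08 log2). Slco1c1, a transporter of thyroid hormone, fell (-0.67 ± 0.08, adjusted p = 0.00679), as did Slc18a1, a vesicular monoamine transporter (-0.58 ± 0.08), and Slc1a6, a glutamate transporter, rose (0.60 ± 0.07). Fasn, Fdps, Srebf2 and Pla2g4a depended on the slide term (adjusted p = 0.0533 to 0.173 without it). Calls were also lost for Fdps after scaling to the median, and for Pla2g4a in the deposited matrix, and for Scd, Fdps and Pla2g4a with no filter on dim probes (adjusted p = 0.0503 to 0.0859). Pla2g4a had a smaller effect after normexp correction, at -0.51. The calls of Scd, Insig1, Dhcr7, Fdps, Mvk, Srebf2 and Pla2g4a did not hold for each slide left out in turn (highest adjusted p = 0.0520 to 0.142).

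In the list of chemokines, complement and immune genes, 6 of 44 tested members rose and 7 fell (1 and 0 without the replicate 3 arrays; median -0.04 log2). Apart from Il34, Ifit2, an interferon-induced gene, had the largest rise of the list (0.68 ± 0.15, adjusted p = 0.0389). Ccl11, a chemokine, and Cd55, an inhibitor of complement, lie outside this list and rose by 1.48 and 1.46. Ccl2, a chemokine for monocytes, fell by 1.2 on the log2 scale (adjusted p = 0.0110), with -1.78 at 9 h and -0.61 at 26 h, and the blocked array was the lower one on 3 of 6 slides. C1ql2, a synaptic C1q-like protein, fell (-0.63 ± 0.08), although the blocked array was the higher one on the slides scanned on day 2. Of the microglia and macrophage markers, 0 of 14 tested passed the limma threshold in either direction (0 higher and 0 lower at an unadjusted p under 0.05), and their summed linear level ran from 3.97 to 5.03 (median 4.56) on blocked arrays and from 3.87 to 5.17 (median 4.74) on untreated arrays. Fitted without slides, Ifit2 and Ccl2 did not pass (adjusted p = 0.0694 to 0.326). Another processing ended the call of Ifit2 with no filter on dim probes (adjusted p = 0.0776). After normexp correction Ifit2 had a smaller effect of 0.39. Ifit2 did not pass in every fit with 1 slide left out (highest adjusted p = 0.132).

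**Figure D3:**
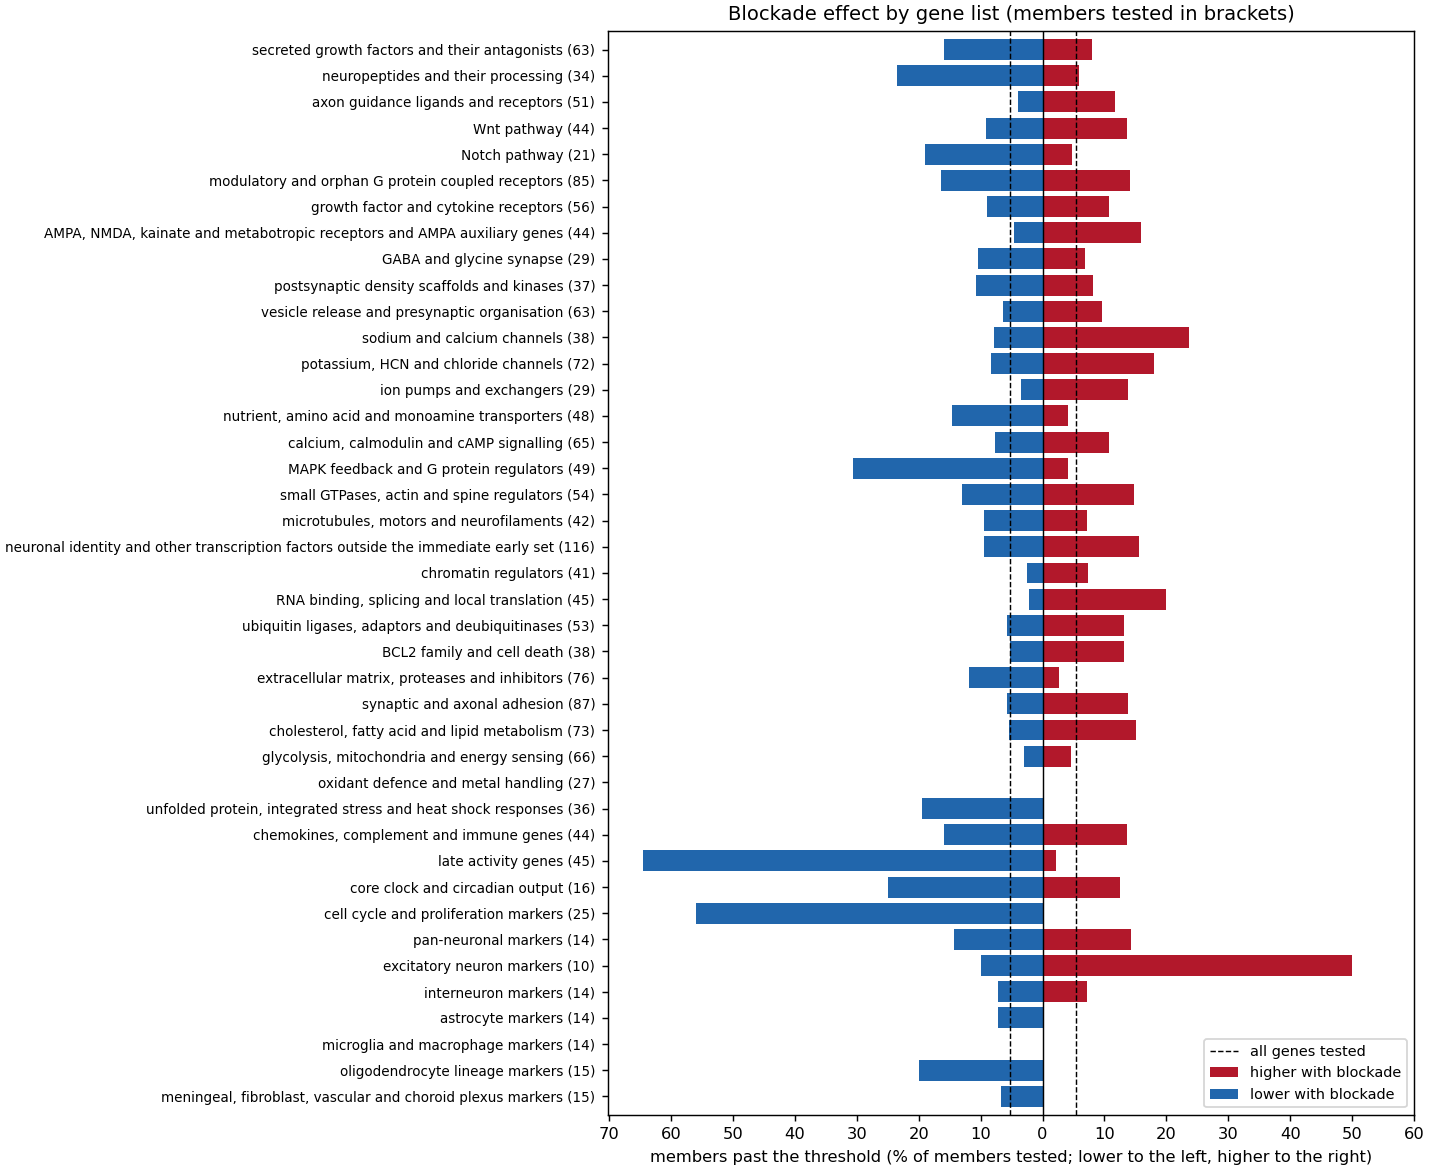
Share of the tested members of each of 41 gene lists past an adjusted p of 0.05, in percent, lower with blockade to the left and higher to the right; dashed lines mark the shares over all genes tested, 5.33% lower and 5.38% higher. Late activity genes reach 64.4% lower, cell cycle and proliferation markers 56.0% lower and excitatory neuron markers 50.0% higher.

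The list of late activity genes, which collects known second-wave genes and overlaps several of the lists above, had the largest share of changed members: 1 of 45 tested members rose and 29 fell (0 and 16 without the replicate 3 arrays; median -0.60 log2). These genes were listed for their known dependence on activity, with earlier results of these data known, so the direction is no independent evidence. Lrrtm2, a postsynaptic adhesion protein, was the one member that rose (0.62 ± 0.07, adjusted p = 0.00411). The number of lower members was 23 to 26 with 1 slide left out at a time and 25 without the slide term, and 15 to 23 without the arrays of 1 replicate number.

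Cell cycle and proliferation markers were lower in 14 of 25 tested members and higher in 0 (median -0.35 log2). Cdkn1c, the largest fall of the list, is an inhibitor of division, unlike Cenpf (-0.61 ± 0.10), a kinetochore protein, and Cdk1 (-0.47 ± 0.11), the mitotic kinase. The count of 14 was 1 to 9 with 1 slide left out at a time and 1 without the slide term, 3 in the deposited matrix and 1 without the replicate 3 arrays. The summed linear level of this list ran from 16.3 to 21.2 (median 19.9) on blocked arrays and from 15.0 to 23.8 (median 20.9) on untreated arrays. Of the oligodendrocyte lineage markers, 3 of 15 tested were lower (0 without the replicate 3 arrays), with Bcas1, of newly formed oligodendrocytes, first (-0.66 ± 0.11), and their sum ran from 14.3 to 21.7 (median 18.5) on blocked arrays and from 17.2 to 32.2 (median 21.3) on untreated arrays. Of the astrocyte markers, 1 of 14 tested, Fgfr3, was lower (0 without the replicate 3 arrays), and their sum ran from 69.9 to 91.8 (median 77.4) on blocked arrays and from 71.2 to 110 (median 93.3) on untreated arrays. The part of these cells in the results was not tested. Without the slide term Cenpf, Cdk1, Bcas1 and Fgfr3 did not pass (adjusted p = 0.0711 to 0.525). The threshold was missed by Cenpf and Cdk1 with slide as a random block, and Cdk1 after scaling to the median, and Cdk1 in the deposited matrix, and Cdk1 with no filter on dim probes (adjusted p = 0.0635 to 0.123). Normexp correction gave Cenpf a smaller effect of -0.29. With 1 slide left out, Cenpf, Cdk1 and Bcas1 could miss the threshold (highest adjusted p = 0.0582 to 0.110).

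Neuronal markers were present on every array, with 14 of 15 pan-neuronal markers tested. Of these, 2 rose and 2 fell (0 and 0 without the replicate 3 arrays, and 0 and 0 without the slide term). Their summed level ran from 67.0 to 80.8 (median 75.2) on blocked arrays and from 59.5 to 87.4 (median 80.2) on untreated arrays. Excitatory neuron markers were more often higher: 5 of 10 tested members rose and 1 fell (1 and 0 without the replicate 3 arrays; median 0.39 log2). These were Neurod2, Bhlhe22, Neurod6, Slc17a7 and Nrgn, while Slc17a6, the vesicular glutamate transporter VGLUT2, was lower (-0.34 ± 0.06). The higher count was 4 to 5 with 1 slide left out at a time and 4 without the slide term, and 1 to 3 without the arrays of 1 replicate number. The sum of these markers ran from 18.9 to 22.9 (median 21.1) on blocked arrays and from 11.2 to 19.3 (median 13.8) on untreated arrays. Among interneuron markers, 1 of 14 tested members rose and 1 fell (1 and 1 without the replicate 3 arrays; median 0.17 log2): Dlx1 rose and Vip fell, and the sum ran from 51.2 to 83.6 (median 68.0) on blocked arrays and from 50.3 to 87.7 (median 56.8) on untreated arrays. Of the markers of meningeal, fibroblast, vascular and choroid plexus cells, 1 of 15 tested was lower, Kdr, a receptor of endothelial growth factor (-0.66 ± 0.07, adjusted p = 0.00358), and the sum ran from 2.01 to 34.2 (median 7.93) on blocked arrays and from 3.34 to 34.7 (median 7.43) on untreated arrays. Nrgn and Slc17a6 did not pass without the slide term (adjusted p = 0.0886 to 0.0948). Above the threshold elsewhere were Slc17a6 in the deposited matrix, and Nrgn with no filter on dim probes (adjusted p = 0.0585 to 0.0593). Leaving out 1 slide took Nrgn and Slc17a6 above the threshold (highest adjusted p = 0.0780 to 0.0845).

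Of the 2275 genes past the threshold, 1803 had the same sign at 9 h and at 26 h, and for 1116 the size was larger at 26 h. These genes were chosen by the average of the same effects, which favours a shared sign. The share over all genes tested is not given. Among the falls, Bdnf had differences of group means of -1.77 at 9 h and -3.40 at 26 h, and Trpc6 of -1.83 at 9 h and -2.51 at 26 h. Among the rises, Neurod2 had 1.80 at 9 h and 0.67 at 26 h, Cidec 1.88 at 9 h and 1.0 at 26 h and Hrk 1.16 at 9 h and 1.86 at 26 h. These contrasts between the times are values without a test. Over slides, 1343 of the called genes had the same sign in 6 of 6 slides, and 1801 the same sign on both scan days. The choice of genes favours this too. Over all genes tested, the blocked array was higher on all 6 slides for 5.7% and lower for 5.02%. A difference within a slide also holds the culture time, with opposite sign on the scan days.

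**Figure D4:**
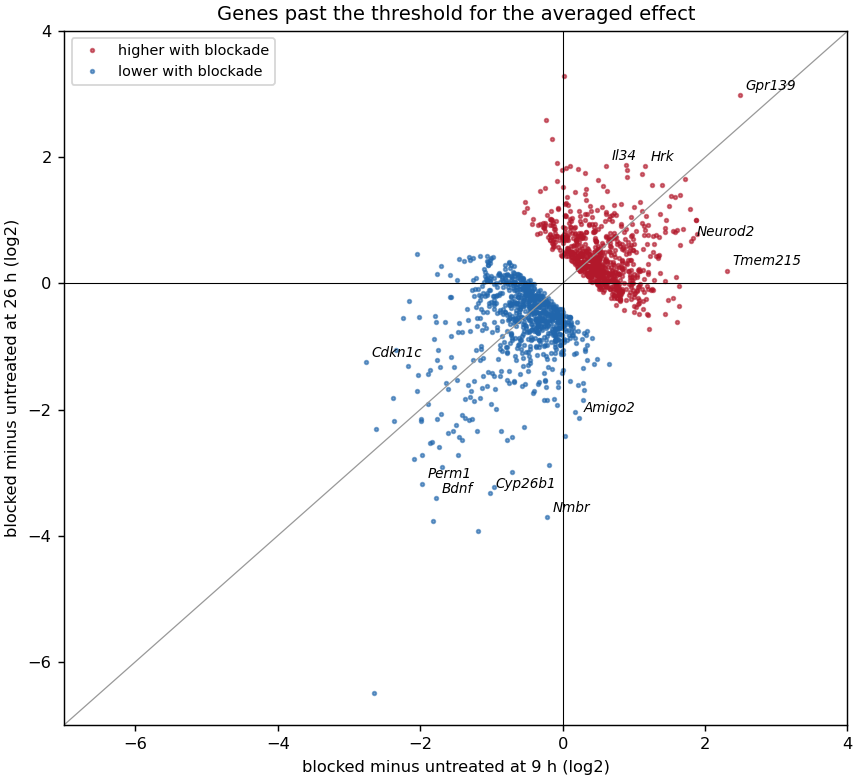
Effect of blockade at 9 h (horizontal) and at 26 h (vertical) in log2 units, blocked minus untreated, for the named genes past the threshold for the averaged effect, immediate early genes included; red, higher, and blue, lower, and the grey line marks equal effects. Cyp26b1 lies below the line at -1.03 and -3.33, and Tmem215 below it on the right at 2.30 and 0.20; the time and the scan day cannot be told apart.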

How the data were processed

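Gene expression was measured on 12 single-colour Agilent arrays, 3 for each of blocked 9 h, blocked 26 h, untreated 9 h and untreated 26 h. Per the labels' protocols, 200 ng of TRIzol total RNA was amplified and Cy3-labelled with the Low Input Quick Amp kit. Per the file headers, the authors' scanner output was made with Agilent Feature Extraction 10.5.1.1, and its processed signal is a background-corrected intensity on a linear scale. The matrix the authors deposited holds log2 values that follow log2 of the processed signal with slopes of 1.0001 to 1.0002 and another constant per array, and it was used as an alternative.

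Processed signals were converted to log2 minus the 75th percentile of each array. Control spots and 3751 outlier values were left out, spots of a probe were averaged, and of 30367 probes 18004 were matched to a gene by accession through the RefSeq table. Probes entered the fit when the scanner software had marked every array of 1 or more groups as well above background, and the brightest probe stood for a gene. limma 3.58.1 in R 4.3.3 was fitted to all 12 arrays with terms for slide, time and blockade, leaving 4 residual degrees of freedom, and two-sided p-values were adjusted by Benjamini-Hochberg over 21244 genes or unnamed targets. The labels describe separate cultures for the replicates, but not whether a replicate number marks a shared culture, and the number of arrays limits the precision. Where all arrays of a group lay below background, lower values of that group were raised to each array's lowest signal marked well above background. The fold is then given as a lower bound. It holds on the scale of the processed signal only, and normexp correction gave smaller folds for the genes given a bound. The raised values were not fitted, so adjusted p-values of these genes belong to the levels before this step.

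The 41 gene lists (1702 of 2045 genes tested) and the named genes were chosen with earlier results of these data known. The rule named the 20 largest rises and falls outside the immediate early set with 1 sign on 6 of 6 slides. It also named up to 2 rises and 2 falls past the threshold per list, whatever their signs within slides. The rule gave 153 genes, and other markers (Neurod6, Cdk1) could also be named. Chosen after their values were seen were Abcg1, Acan, Adra2c, Angpt2, Bbc3, Bmp4, Cdh11, Cdh9, Chrd, Chrdl1, Crh, Dagla, Dhcr7, Dusp4, Dusp5, Dusp6, Fasn, Fdps, Igf1, Mmp9, Mvk, Nrg1, Oprl1, Pcdh19, Pcsk1, Penk, Ptger3, Rasgrp1, Rasl11b, Spry4, Srebf2, Sstr1 and Tac1. The fit was tested on simulated data with known changes and recovered 46.3% of changes of 0.5, 77.6% of 1 and 95.5% of 2 log2 units. These sizes were given to 67, 67 and 66 of 21214 genes, and 8 of 154 calls were false. In the data 2275 genes passed, and the simulated noise was independent between arrays, so these rates may differ for the real fit. Results for a few genes are not reported here. Alternatives varied the block, scaling, background correction, filter, outliers, probe choice, array weights and the arrays included.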

Additional observations from a re-analysis of the deposited data

Results flagged for a closer look

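Among the 6 untreated arrays, 1 array stood far from the others for 3 of the 40 largest rises and falls. Plcxd2 lay at -0.37 log2 on untreated 26 h replicate 1, above the other untreated arrays, Cdkn1c at -2.0 on the same array, below the others, and Htr1a at -6.05 on untreated 26 h replicate 3, above the others. The blocked and the untreated arrays of all 40 genes were screened. The rule would flag about 1 in 20 groups drawn from a single normal distribution. Each group here mixes 9 h and 26 h arrays, so this rate may not hold, and the cause of the 3 cases was not tested.

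Of the 153 genes named by rule, 7 had all 3 differences between same-numbered arrays on one side of 0 at 9 h and on the other side at 26 h. Other genes were not screened in this way. The effect at 26 h minus that at 9 h was -1.71 log2 for Dlgap3, -1.35 for Cacna2d1, -0.96 for Atp2a2, -1.82 for Marchf11, -2.35 for Amigo2, -1.17 for Prkag2 and -1.16 for Shmt2, an enzyme of mitochondrial one-carbon metabolism. Each compares arrays of different slides and scan days. The difference was not tested, and the time and the scan day cannot be told apart.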

How the results depend on the processing

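No count of rises and falls was stable to every choice. Without a replicate block, as a mean per group with no slide, 937 genes passed (484 higher and 453 lower, against 1142 and 1133), 907 of them among the 2275. With no filter on dim probes, where 26896 genes were tested, 1368 passed (698 and 670), and with array weights 3483 passed, 1834 of them lower. Leaving out arrays gave 200 to 1733 genes, 100 to 837 higher and 100 to 896 lower, the lowest without replicate 2. The other 9 processing alternatives gave 2079 to 3043 genes. Same-numbered arrays shared deviations unevenly (correlation -0.041 to 0.683, median 0.5). For arrays of different numbers, those of the same group included, it was -0.814 to 0.12. Deviations were taken from the mean of each group's 3 arrays and so cancel out within a group. The contrast between these ranges is therefore partly built in. Both arrays of a slide had the same replicate number, so the slide block also removed differences between replicate numbers. As a block in place of the slide, the replicate number gave 2727 genes. The median of all genes was 0.022 log2 in the deposited matrix, where 60.9% of calls were higher, against -0.016 and 50.2% here. Of 153 named genes, 96 passed under each of 12 processing alternatives, 96 with each slide left out in turn, and 35 under all alternatives. None of the 153 took the opposite sign under any alternative. Of 1722 list counts, 638 moved by over 1.5 times; 54, 111 and 93 named genes missed the threshold without replicate 1, 2 and 3. After normexp correction 28 of the 153 effects were over 1.5 times smaller; fitted values of genes near background are limited by signal.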
